A study of Rattus norvegicus with 13 samples.

Results

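The genes described here encode the motors that move cargo along microtubules: the kinesins, the kinesin light chains, cytoplasmic dynein, its cofactor dynactin and the dynein regulators Lis1, Nde1 and Ndel1. They were chosen by gene name, with earlier results of these data known. A probe set, the unit in which the array reports a transcript, was taken if its only platform symbol began with Kif and a digit, with Klc, Dync, Dynl or Dctn, or was *Pafah1b1*, *Nde1* or *Ndel1*. This gave 87 probe sets of 55 genes, out of 31042 probe sets that are not controls and 20826, of 14217 genes, that carry a single symbol. By role, 28 probe sets of 12 genes were kinesins of anterograde transport, 8 of 4 genes were kinesin light chains, 13 of 10 genes were mitotic kinesins and 10 of 5 genes were other kinesins. The dynein machinery held 6 probe sets of 5 dynein 1 genes, 8 of 7 dynein light chain genes, 4 of 4 dynein 2 genes, 6 of 5 dynactin genes and 4 of 3 regulator genes. A further 6 motor probe sets carried several symbols, among them those of *Dynll1* and *Dctn3* and 4 of *Kif1b*, and were left out.

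The samples were rat cortical cultures grown in microfluidic platforms that separate axons from cell bodies, in Neurobasal medium with B27. Regenerating axons (3 arrays) were cut after 11 days in culture and collected on day 13, after 2 days of regrowth; neurons (3 arrays) and uninjured axons (7 arrays) were not cut and were also collected on day 13. Each array took polyadenylated RNA pooled from 3 platforms and amplified in 2 rounds. The labels give no strain, animal age or sex, and apart from 3 culture batches of uninjured axons they do not say which arrays came from separate cultures, so the spread used in the tests may be technical in part.

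The deposited values were linear ratios, not signals, so a level of 1 is the level of the denominator and a level cannot be compared between probe sets. Uninjured arrays 1 to 3 and 4 to 6 formed sets with a median of 1 in every row, and array 7 was 1 throughout and held no measurement. The denominator of the regenerating and neuron arrays was not given in the sources used here and was taken as the uninjured axon level. A difference of regenerating axons or neurons from uninjured axons, given below with its standard error (SE), is the mean log2 ratio of the 3 arrays against a fixed reference of 0, and the mean of the 6 measured uninjured arrays is not subtracted. That mean ran from -0.60 (*Kif5c* 1380172_at) to 0.38 (*Kif20b*) over the motor probe sets and lay more than 0.1 from 0 in 25 of 87. The uninjured arrays enter the spread only. Tests used limma over all 31042 probe sets, with the reference counted as 1 array. Between regenerating axons and neurons the difference is one of group means. A probe set was called higher or lower where its Benjamini-Hochberg adjusted p was below 0.05. Because the samples are bulk RNA, fewer axons or cells of a type and less of a transcript in each cannot be told apart.

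Kinesins are ATP-driven motors, most of which walk toward microtubule plus ends, and in an axon, whose microtubules point outward, they carry vesicle precursors, mitochondria and RNA granules from the cell body to the tip. Cytoplasmic dynein 1, with dynactin and Lis1, walks the other way and returns endosomes, autophagosomes and injury signals to the cell body. Dynein 2 works inside cilia, and the mitotic kinesins build and move the spindle in dividing cells. Messenger RNAs of some motor subunits and of dynein regulators have been found in axons, where they can be translated.

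Median ratios over all probe sets lay at 1.01 to 1.02 in regenerating arrays and at 0.937 to 0.978 in neuron arrays. Hybridisation control probe sets, which read RNA added to every sample, had medians of 1.20, 1.48 and 1.62 in the regenerating arrays, 0.258, 0.846 and 0.141 in the neuron arrays and 0.926 to 1.13 in uninjured arrays. The ratio of the 3′ to the 5′ GAPDH control probe set was 0.453 to 0.716 in regenerating arrays, 0.214 to 0.300 in neurons and 0.90 to 1.39 in uninjured arrays. For beta-actin the same ratio was 0.648 to 1.02 in regenerating arrays, 1.34 to 1.72 in neurons and 0.965 to 1.17 in uninjured arrays. In neurons the 2 controls thus went opposite ways. Of 18 probe sets of neuronal markers, 14 were higher in neurons than in uninjured axons and 1 was lower, and of 16 of astrocyte markers 10 were higher and 2 lower. The oligodendrocyte lineage had 5 of 11 higher and 2 lower, and microglia 7 of 9 lower and none higher. Probe sets of chemosensory receptors, a class taken as largely silent in cortical cells, ran from -1.61 to 0.20 log2 in neurons against uninjured axons, with 19 of 28 called lower and none higher. The part of these features in the motor results below was not tested.

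Between neurons and uninjured axons, the calls among motor transcripts were spread unevenly over the roles. Of 87 motor probe sets, 33 (37.9%) were higher in neurons, against 28.4% of all probe sets and 34.3% of those with a single symbol, and 13 (14.9%) were lower, against 27.5% and 21.8%. The median difference of the motor probe sets was 0.52 log2, against -0.07 over all probe sets and 0.16 over those with a single symbol. All 3 neuron arrays lay above all uninjured arrays in 37 motor probe sets (42.5%, against 33.1% of all and 39.4% of those with a single symbol) and below them in 16 (18.4%, against 36.8% and 30.2%). Of the 28 probe sets for dynein 1, its light chains, its regulators, dynactin and dynein 2, 19 were higher and 0 were lower (limma; 1, *Dynlrb2*, was lower at an unadjusted p below 0.05). The mitotic kinesins had none higher and 4 of 13 lower (30.8%, against 27.5% of all and 21.8% of those with a single symbol).

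**Figure D1:**
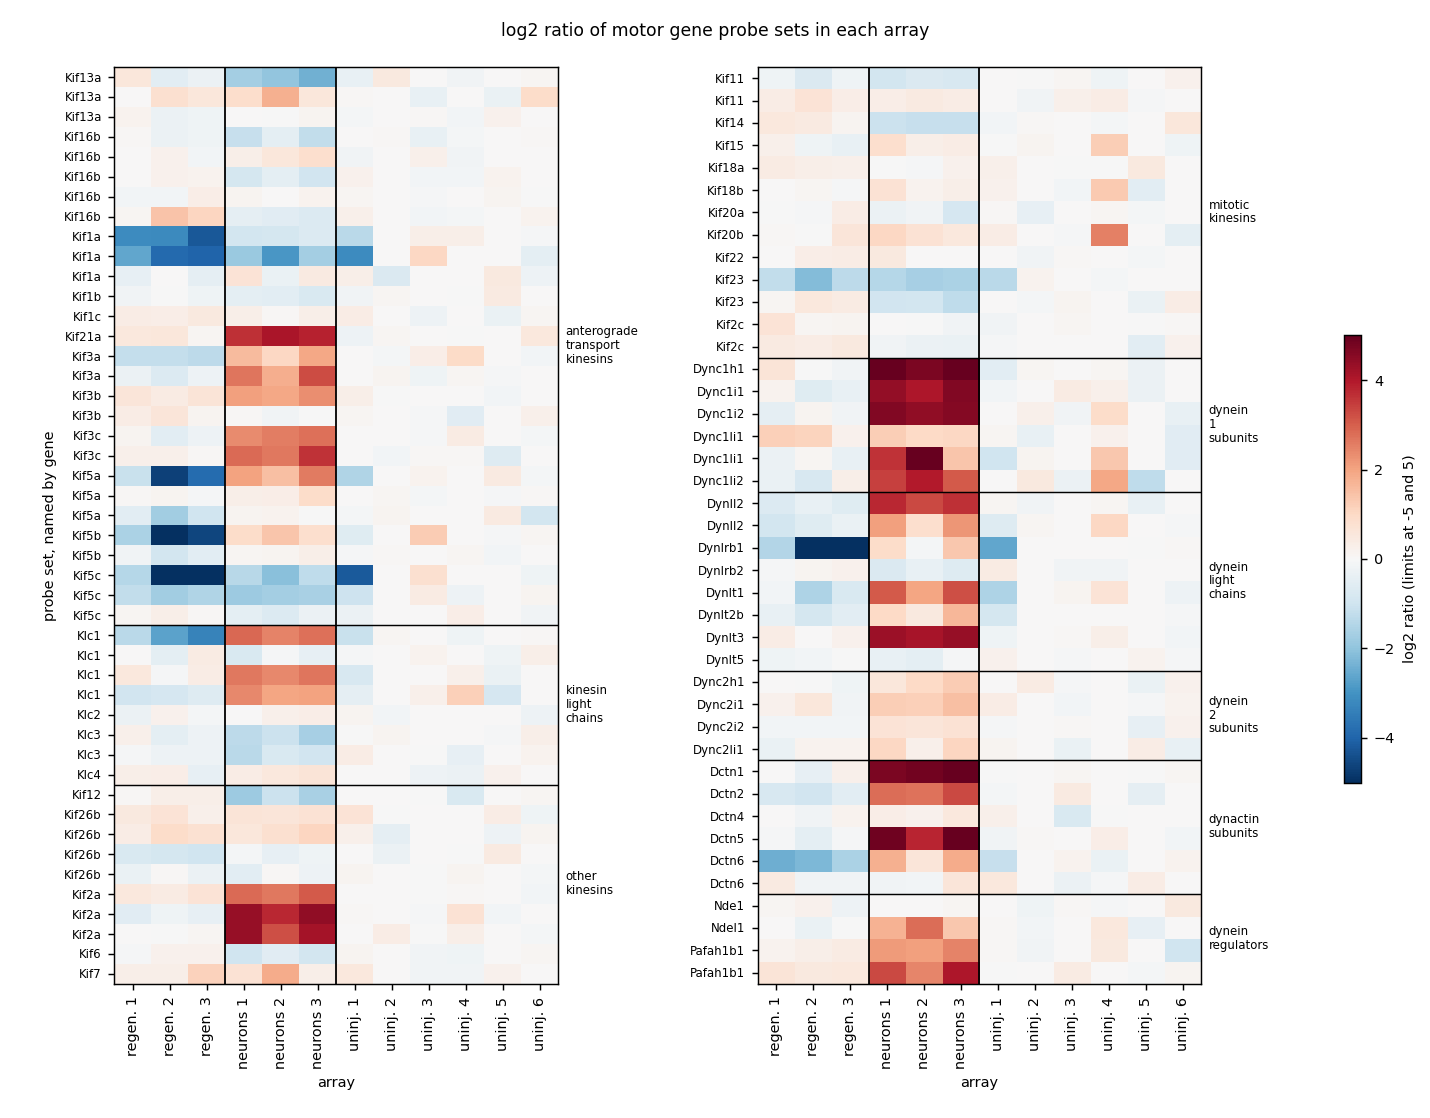
Log2 ratios of the 87 motor probe sets (rows, grouped by role) in the 3 regenerating, 3 neuron and 6 uninjured arrays (columns), on a colour scale limited to -5 and 5. Most dynein 1 and dynactin rows are high in the neuron arrays and near 0 in both kinds of axon, while a few kinesin rows are low in the regenerating arrays.

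All 6 dynein 1 probe sets were higher in neurons, with a median difference of 3.91 log2. *Dync1h1*, the heavy chain that hydrolyses ATP and binds the microtubule, had ratios of 35.6, 26.1 and 38.7 in the 3 neuron arrays, against 0.695 to 1.07 (median 1) over the 6 uninjured arrays that carry a measurement, whose median is near 1 by construction. The neuron arrays lay far above every uninjured array, and the regenerating arrays, at 1.58, 0.998 and 0.889, stayed around 1. The difference of neurons over uninjured axons was 5.04 ± 0.31 log2, or 33-fold (limma, adjusted p = 4.6e-06). The intermediate chains *Dync1i1* and *Dync1i2*, which link the heavy chain to dynactin, were 20.4-fold and 23.6-fold higher. *Dync1i1*, the form known mainly from neurons, had 20.8, 16.4 and 24.8 in neurons, against 0.808 to 1.32 (median 1) in uninjured axons. *Dync1i2*, the widely expressed form, had 25.1, 21.8 and 24.1 in neurons, against 0.781 to 1.89 (median 1) in uninjured axons.

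The light intermediate chains, which bind cargo adaptors, were less even. *Dync1li2* had 10.7, 15.6 and 8.32 in neurons, against 0.411 to 3.83 (median 1) in uninjured axons, a difference of 3.48 ± 0.92 log2. One probe set of *Dync1li1* (1399090_at) had 12.3, 34.9 and 2.62 in neurons, so that array 3 stood well below the other two, against 0.508 to 2.54 (median 1) in uninjured axons. Its difference of 3.38 ± 1.16 log2 passed with an adjusted p of 0.0319 (limma). The other *Dync1li1* probe set (1370576_at) differed by 1.10 ± 0.30 log2, the smallest difference among dynein 1 probe sets, with 2.36, 2.02 and 2.06 in neurons, against 0.684 to 1.17 (median 1) in uninjured axons. Its regenerating arrays, at 2.26, 2.16 and 1.17, overlapped with the neuron arrays.

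The light chains, which dimerise on the intermediate chains, had 4 of 8 probe sets higher in neurons and none lower (limma; at an unadjusted p below 0.05, 5 were higher and 1 lower). *Dynlt3* had 19.5, 17.3 and 20.6 in neurons, against 0.86 to 1.23 (median 1) in uninjured axons, 19.1-fold higher at an adjusted p of 3.12e-06 (limma). *Dynll2* was higher at both of its probe sets, by 3.58 ± 0.26 and 1.70 ± 0.57 log2, and *Dynlt1* by 2.76 ± 0.67. *Dynlrb1*, whose product is shared by dynein 1 and dynein 2, did not pass, with 1.9, 0.922 and 2.55 in neurons, against 0.165 to 1.04 (median 1) in uninjured axons. *Dynlt2b*, a light chain of dynein 2, also did not pass (1.04 ± 0.44 log2). The lowest differences were those of *Dynlrb2* and *Dynlt5*, at -0.59 ± 0.25 and -0.30 ± 0.22 log2, neither of which passed.

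Dynactin, the complex that joins dynein to its cargo and makes it processive, had 3 of 6 probe sets higher in neurons and none lower (limma; 4 higher and 0 lower at an unadjusted p below 0.05). *Dctn1*, the p150Glued arm that touches the microtubule, had 1.02, 0.746 and 1.19 in regenerating axons and 26.4, 28.5 and 44.2 in neurons, against 0.979 to 1.07 (median 1) in uninjured axons. Its difference of neurons over uninjured axons, 5.01 ± 0.27 log2 (32.2-fold, adjusted p = 3.12e-06, limma), was close to that of the dynein heavy chain. *Dctn5*, of the pointed-end complex, had 28.8, 14 and 33.7 in neurons, against 0.889 to 1.27 (median 1) in uninjured axons. *Dctn2*, known as dynamitin, was 7.67-fold higher. *Dctn6*, also of the pointed-end complex, had 3.41, 1.52 and 3.65 in neurons, against 0.456 to 1.14 (median 1) in uninjured axons at one probe set (1371533_at), which just missed the threshold (adjusted p = 0.0564, limma). The second *Dctn6* probe set and *Dctn4* differed by 0.10 ± 0.38 and 0.35 ± 0.33 log2 and did not pass.

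Of the regulators, *Pafah1b1*, which encodes Lis1, was higher at both probe sets. Probe set 1392890_at had 9.94, 5.36 and 16.3 in neurons, against 0.941 to 1.33 (median 1) in uninjured axons, and 1387807_at had 4.39, 4.19 and 5.62 in neurons, against 0.503 to 1.4 (median 1) in uninjured axons. *Ndel1*, which tethers Lis1 to dynein, was 3.88-fold higher. Its relative *Nde1*, best known from dividing progenitors, differed by 0.04 ± 0.24 log2, the smallest value of the group, with 1.01, 1.01 and 1.06 in neurons, against 0.862 to 1.39 (median 1) in uninjured axons. For dynein 2, the motor of the cilium, the heavy chain *Dync2h1* was 1.94-fold higher, *Dync2i1* 2.48-fold and *Dync2i2* 1.59-fold, and *Dync2li1* (0.78 ± 0.37 log2) did not pass.

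The kinesins of anterograde transport showed no single direction. Of 28 probe sets, 7 (25%, against 28.4% of all and 34.3% of those with a single symbol) were higher in neurons. A further 5 (17.9%, against 27.5% and 21.8%) were lower and 16 did not pass, with a median of 0.15 log2. The highest was *Kif21a*, a kinesin-4 that limits microtubule growth, with 12.7, 17.2 and 14.6 in neurons, against 0.847 to 1.45 (median 1) in uninjured axons (3.88 ± 0.28 log2, 14.7-fold, adjusted p = 8.27e-06, limma). The kinesin-2 genes were higher at 5 of 6 probe sets. *Kif3a*, the partner common to both kinesin-2 pairs, had 6.35, 3.53 and 9.51 in neurons, against 0.861 to 1.11 (median 1) in uninjured axons at probe set 1378509_at. *Kif3c*, the form enriched in nervous tissue, was 8.19-fold and 5.85-fold higher at its probe sets. *Kif3b* was 4.32-fold higher at one probe set, while the other differed by -0.05 ± 0.28 log2.

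Kinesin-1, the main motor of fast axonal transport, was covered by 8 heavy-chain probe sets, of which 1 was higher and 1 lower. *Kif5a* probe set 1373187_at had 4.08, 2.84 and 6.01 in neurons, against 0.357 to 1.36 (median 1) in uninjured axons, a difference of 2.04 ± 0.60 log2. The other *Kif5a* probe sets differed by 0.52 ± 0.25 and 0.10 ± 0.40 log2 and did not pass. Neither *Kif5b* probe set passed (1.06 ± 0.55 and 0.18 ± 0.19 log2). *Kif5c* had negative values at each of 3 probe sets (-1.71 ± 0.44, -1.58 ± 1.43 and -0.50 ± 0.26 log2), of which the first (1395997_at) passed. The second (1380172_at) was -0.98 log2 when set against the mean of the 6 uninjured arrays. Probe set 1395997_at had 0.281, 0.308 and 0.328 in neurons, against 0.485 to 1.33 (median 1) in uninjured axons.

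Kinesin-3 motors, which carry synaptic vesicle precursors and endosomes, had 4 of 13 probe sets lower in neurons and 0 higher (limma; 1 higher, of *Kif16b*, at an unadjusted p below 0.05). Over all probe sets, 27.5% were lower and 28.4% higher. *Kif1a*, the carrier of synaptic vesicle precursors, did not pass at any of its 3 probe sets, whose differences were -2.15 ± 1.22, -0.82 ± 0.50 and 0.26 ± 0.46 log2. *Kif13a* was lower at probe set 1390319_at, with 0.31, 0.256 and 0.19 in neurons, against 0.775 to 1.42 (median 1) in uninjured axons (-2.02 ± 0.35 log2, adjusted p = 0.0011, limma). Its 2 other probe sets differed by 1.08 ± 0.51 and 0.05 ± 0.20 log2 and did not pass. *Kif16b*, a motor of early endosomes, was lower at 3 of 5 probe sets, at -0.96, -0.78 and -0.57 log2. *Kif1b* and *Kif1c* did not pass (-0.59 ± 0.24 and 0.21 ± 0.27 log2).

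Among the kinesin light chains, which tie kinesin-1 to cargo, *Klc1* was higher in neurons at 3 of 4 probe sets, by 2.69 ± 0.42, 2.57 ± 0.34 and 2.13 ± 0.60 log2. Its probe set 1388125_a_at had 6.19, 5.26 and 6.45 in neurons, against 0.573 to 1.18 (median 1) in uninjured axons. The remaining *Klc1* probe set differed by -0.41 ± 0.29 log2. *Klc3*, best known from the sperm tail, was lower at both probe sets, at -1.35 and -1.02 log2, and *Klc2* and *Klc4* did not pass. Outside transport, *Kif2a*, which takes tubulin off microtubule ends and restrains collateral branches, was among the most raised motors, higher at all 3 probe sets. Its probe set 1383156_at had 20.4, 13.6 and 21.4 in neurons, against 0.901 to 1.66 (median 1) in uninjured axons, or 18.1-fold. The other probe sets were 15.1-fold and 7.15-fold higher. *Kif26b*, an atypical kinesin, was higher at 1 of 4 probe sets (0.80 ± 0.31 log2), *Kif12* and *Kif6* were lower (-1.50 ± 0.35 and -0.84 ± 0.24 log2), and the ciliary *Kif7* did not pass (0.95 ± 0.50 log2).

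Of 13 mitotic kinesin probe sets, 4 were lower in neurons and 0 were higher (limma; also 0 higher and 4 lower at an unadjusted p below 0.05), and the median was -0.06 log2. The 4 lower made up 30.8%, against 27.5% of all probe sets and 21.8% of those with a single symbol. *Kif23*, of the central spindle, was lower at both probe sets. At 1391063_at it had 0.371, 0.32 and 0.335 in neurons, against 0.394 to 1.14 (median 1) in uninjured axons (-1.55 ± 0.47 log2, adjusted p = 0.0189, limma), and at 1395828_at the difference was -1.04 ± 0.27 log2. *Kif14*, needed for cytokinesis, had 0.477, 0.452 and 0.446 in neurons, against 0.899 to 1.46 (median 1) in uninjured axons, and *Kif11*, which pushes spindle poles apart, was lower at one probe set (-0.82 ± 0.21 log2) and not at the other (0.38 ± 0.24). The highest value, for *Kif20b*, was 0.76 ± 0.87 log2 and did not pass, with 2.04, 1.66 and 1.42 in neurons, against 0.713 to 5.67 (median 1) in uninjured axons. The 4 lower values, -0.82 to -1.55 log2, lay inside the range of the chemosensory receptor probe sets. Among all 13 motor probe sets called lower, those of *Kif13a* and *Kif5c* alone lay below that range. Of 19 probe sets of dividing-cell markers, 5 were higher in neurons and 1, of *Mki67*, was lower.

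Promoter sequences of the motor genes were read because cell-cycle genes often share upstream elements, so that the mitotic and the transport kinesins can be set side by side at the level of DNA. RefSeq promoters on GRCr8 were matched by symbol for 46 of 55 motor genes, and the 250 bases before the start were searched on both strands for the CHR, a cell-cycle element (TTTGAA or TTCGAA), and for CCAAT, the NF-Y box. The CHR letters were found in 4 of 9 mitotic kinesins (*Kif15*, *Kif20b*, *Kif22* and *Kif23*) and in 0 of 11 anterograde kinesins, against 17.4% of all 33469 promoters. They were not particular to mitotic kinesins, being found also in *Dctn1*, *Dynlt5*, *Nde1* and *Kif26b*. Over all motor genes they were found in 8 of 46 (17.4%). CCAAT was found in 5 of 9 mitotic and 3 of 11 anterograde kinesins, against 34% of all. A match is a description of letters, not of a bound site. Shown 5′ to 3′ on the gene's strand, with motif letters in capitals, are *Kif23* (chr8:71320585-71320834, minus strand), which holds both motifs with ATTGG 88 and TTTGAA 79 bases before the start; *Kif5b* (chr17:56185136-56185385, plus strand), which holds ATTGG, the reverse complement of CCAAT, 63 bases before the start; and *Kif1a* (chr9:101094778-101095027, minus strand) and *Dync1h1* (chr6:135436228-135436477, plus strand), which hold neither.
Kif23: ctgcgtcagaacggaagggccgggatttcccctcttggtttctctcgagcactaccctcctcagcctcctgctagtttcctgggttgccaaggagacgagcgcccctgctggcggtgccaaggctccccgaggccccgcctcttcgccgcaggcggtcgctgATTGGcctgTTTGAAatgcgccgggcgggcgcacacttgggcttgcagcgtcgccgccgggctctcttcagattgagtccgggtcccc
Kif5b: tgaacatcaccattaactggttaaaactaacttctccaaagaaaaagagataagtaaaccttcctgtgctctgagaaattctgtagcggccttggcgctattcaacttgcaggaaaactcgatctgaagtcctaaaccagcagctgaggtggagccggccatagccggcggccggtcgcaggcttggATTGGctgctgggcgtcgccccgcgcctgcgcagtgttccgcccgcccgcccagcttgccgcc
Kif1a: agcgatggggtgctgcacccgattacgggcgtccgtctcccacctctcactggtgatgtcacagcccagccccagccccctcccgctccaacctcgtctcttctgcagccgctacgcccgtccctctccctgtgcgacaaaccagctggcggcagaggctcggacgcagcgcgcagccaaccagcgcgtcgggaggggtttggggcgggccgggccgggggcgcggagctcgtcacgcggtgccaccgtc
Dync1h1: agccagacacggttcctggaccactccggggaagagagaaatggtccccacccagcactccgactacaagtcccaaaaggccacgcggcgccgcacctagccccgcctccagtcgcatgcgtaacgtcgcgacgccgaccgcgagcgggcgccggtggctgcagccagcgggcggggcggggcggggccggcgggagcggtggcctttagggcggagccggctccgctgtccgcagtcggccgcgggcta

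Few motor transcripts separated regenerating from uninjured axons. Of 87 motor probe sets, 1 was lower, against 0.335% of all 31042, and 0 were higher, against 0.00966% (0.389% and 0.0144% of those with a single symbol, limma; at an unadjusted p below 0.05, 13 were lower and 4 higher). At that unadjusted threshold, 2138 of all 31042 were lower and 1231 higher. The median difference of the motor probe sets was -0.05 log2, against 0.03 over all probe sets. All 3 regenerating arrays lay below all uninjured arrays in 11 motor probe sets (12.6%, against 10.9% of all and 11.6% of those with a single symbol) and above them in 7 (8.05%, against 10.3% and 10.4%), both close to the background. The counts of calls depend on the error given to the reference: with none, 19 motor probe sets were lower and 9 higher, while the counts over all probe sets became 3707 and 3539. The 6 dynein 1 probe sets ran from -0.27 to 0.84 log2 and none passed (0 in either direction also at an unadjusted p below 0.05). The mitotic kinesins had a median of 0.24 log2, with 0 passing (limma; 0 higher and 1 lower at an unadjusted p below 0.05), and the highest was 0.47 ± 0.25 log2 for a *Kif11* probe set.

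The single call was *Kif1a*. Its probe set 1382785_at had 0.114, 0.111 and 0.0526 in regenerating axons, 0.536, 0.544 and 0.62 in neurons and 0.395 to 1.24 (median 1) in uninjured axons. Every regenerating array was below every neuron and uninjured array. The difference of regenerating from uninjured axons was -3.52 ± 0.59 log2, 11.5-fold lower, at an adjusted p of 0.0474 (limma). Set against the mean of the 6 uninjured arrays it was -3.38 log2. This call rests closely on the threshold: the adjusted p was 0.0685 to 0.122 without uninjured array 2, 5 or 6 or regenerating array 2 or 3, and 0.0926 when the 3 *Kif1a* probe sets were averaged. A second *Kif1a* probe set (1384133_at) had 0.166, 0.0676 and 0.0624 in regenerating axons, 0.28, 0.132 and 0.307 in neurons and 0.112 to 2.07 (median 1) in uninjured axons, and did not pass (-3.49 ± 1.22 log2). The third (1397505_at) had 0.76, 1.01 and 0.729 in regenerating axons and differed from uninjured axons by -0.28 ± 0.39 log2.

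A small group of motor probe sets, mostly of kinesins, was low in every regenerating array, although only the *Kif1a* probe set above passed the test. In 11 motor probe sets (12.6%) all 3 regenerating ratios were below 0.5, against 2.89% of all probe sets and 3.5% of those with a single symbol. They were *Kif1a* 1382785_at and 1384133_at, *Kif3a* 1377025_at, *Kif5a* 1373187_at, *Kif5b* 1372444_at, *Kif5c* 1380172_at and 1395997_at, *Klc1* 1370886_a_at, *Kif23* 1391063_at, *Dynlrb1* 1370179_at and *Dctn6* 1371533_at. Each of the 3 kinesin-1 heavy chains and the light chain *Klc1* thus had a probe set there, though each of these genes also had a probe set outside the group.

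The kinesin-1 values varied strongly among regenerating arrays. *Kif5b* had 0.334, 0.0255 and 0.042 in regenerating axons, 1.89, 2.62 and 1.81 in neurons and 0.65 to 2.38 (median 1) in uninjured axons. *Kif5a* had 0.466, 0.0389 and 0.0699 in regenerating axons, 4.08, 2.84 and 6.01 in neurons and 0.357 to 1.36 (median 1) in uninjured axons. *Kif5c* (1380172_at) had 0.373, 0.0319 and 0.0282 in regenerating axons, 0.383, 0.235 and 0.417 in neurons and 0.0546 to 1.74 (median 1) in uninjured axons. In all of them regenerating array 1 lay well above arrays 2 and 3, and the differences from uninjured axons, -3.82 ± 1.14, -3.21 ± 1.10 and -3.85 ± 1.77 log2, had adjusted p of 0.205, 0.283 and 0.476 (limma). For *Kif5c* the value was -3.25 log2 when set against the mean of the 6 uninjured arrays. *Klc1* (1370886_a_at) had 0.394, 0.156 and 0.098 in regenerating axons, 7.29, 5.56 and 6.66 in neurons and 0.458 to 1.08 (median 1) in uninjured axons.

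The dynein side held 2 of the 11. *Dynlrb1* had 0.358, 0.0267 and 0.0205 in regenerating axons, 1.9, 0.922 and 2.55 in neurons and 0.165 to 1.04 (median 1) in uninjured axons, with the most negative difference of all motor probe sets (-4.11 ± 1.42 log2, 17.2-fold lower, adjusted p = 0.287, limma). *Dctn6* had 0.183, 0.213 and 0.33 in regenerating axons, 3.41, 1.52 and 3.65 in neurons and 0.456 to 1.14 (median 1) in uninjured axons (-2.09 ± 0.48 log2, adjusted p = 0.112, limma). *Kif3a* was the most even, with 0.444, 0.436 and 0.406 in regenerating axons, 2.96, 2.03 and 3.86 in neurons and 0.9 to 1.92 (median 1) in uninjured axons, and no overlap with the uninjured arrays (-1.22 ± 0.36 log2, adjusted p = 0.201, limma). *Kif23* and *Kif5c* 1395997_at differed by -1.56 ± 0.54 and -1.49 ± 0.45 log2.

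Most of these probe sets were also low in uninjured array 1. That array was the lowest of the 6 uninjured arrays in 10 of the 11, and was below 0.5 in 9 of them. Over all motor probe sets it was below 0.5 in 10 (11.5%, the other one being *Dynlt1*), against 1.68% of all 31042 and 1.65% of those with a single symbol. Over all probe sets with every regenerating array below 0.5, uninjured array 1 was the lowest of the 6 in 564 of 897. It was below 0.5 in 289 of 897 (32.2%). Its ratio was 0.0546 for *Kif5c* 1380172_at, 0.112 for *Kif1a* 1384133_at and 0.165 for *Dynlrb1*, while the other 5 uninjured arrays lay between 0.974 and 1.04 for *Dynlrb1*. Likewise regenerating array 1 was the highest of the 3 in 10 of the 11, against 620 of the 897 over all probe sets. With uninjured array 1 left out, which can alter the spread but not the differences, 4 motor probe sets were lower in regenerating axons. These were *Kif1a* 1382785_at and 1384133_at, *Kif5c* 1395997_at and *Dctn6*. Leaving out regenerating array 1 gave 5 lower (*Kif5a*, *Kif5b*, *Klc1*, *Dynlrb1* and *Kif1a* 1382785_at) and 1 higher, *Kif16b* 1396255_at. Calls over all 31042 probe sets rose too, from 104 lower and 3 higher with every array. They became 294 lower and 11 higher without uninjured array 1, and 462 lower and 17 higher without regenerating array 1. Lower calls also rose, to 145 and 191, without uninjured array 3 or 4. They fell to 16, 35 and 17 without uninjured array 2, 5 or 6, and to 6 and 0 without regenerating array 2 or 3. Uninjured array 1 and regenerating array 1 also stood out in some control and marker probe sets. The GAPDH 3′ control was at 0.355, 0.159 and 0.142 in the regenerating arrays and at 0.620 in uninjured array 1, the lowest of the uninjured arrays. *Gap43* 1367930_at, of growing axons, had 0.242, 0.106 and 0.0615 in regenerating axons and 0.281 in uninjured array 1. The other *Gap43* probe set, 1371287_at, had 1.32, 0.954 and 1.19 in regenerating axons and 1 in uninjured array 1. *Stmn2* 1370042_at had 0.173, 0.0247 and 0.0209 in regenerating axons and 0.194 in uninjured array 1. Of the 18 neuronal marker probe sets, 6 were below 0.5 in every regenerating array, with regenerating array 1 the highest in 5 and uninjured array 1 below 0.5 in 3. The part of these features in the motor values was not tested.

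**Figure D2:**
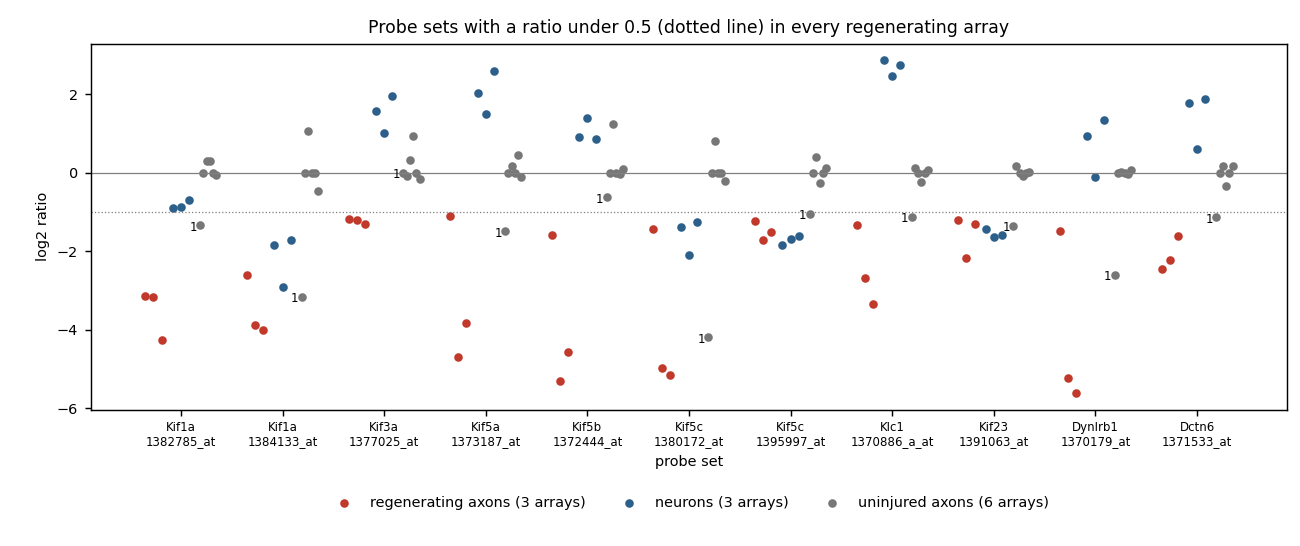
Log2 ratio of each array for the 11 motor probe sets that lay below a ratio of 0.5 in every regenerating array, with regenerating, neuron and uninjured arrays side by side and uninjured array 1 marked with the digit 1. In 10 of the 11 the marked array is the lowest of the uninjured arrays. Over all probe sets with every regenerating array below 0.5 it is the lowest in 564 of 897.

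At the other end, 0 of 87 motor probe sets were higher by 2-fold or more in regenerating axons, while 12 were lower by that much. Over all 31042 probe sets, 74 were higher and 1306 lower by that much, so few were raised anywhere on the array. The highest differences among the motor probe sets were those of *Kif16b* 1396255_at (0.87 ± 0.40 log2) and *Dync1li1* 1370576_at (0.84 ± 0.40 log2), neither of which passed. For *Dync1li1* the ratios were 2.26, 2.16 and 1.17 in regenerating axons, against 0.684 to 1.17 (median 1) in uninjured axons, so the groups overlapped. The 18 neuronal marker probe sets had a median of -0.78 log2, with 0 passing (limma; 9 lower and 0 higher at an unadjusted p below 0.05).

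Regenerating axons set against neurons gave a difference that does not use the uninjured arrays' spread but needs both groups to have been divided by the same reference, which the sources used here do not state. This comparison shares its arrays with both others. Of 87 motor probe sets 44 (50.6%) were lower in regenerating axons, against 35.2% of all probe sets and 41.7% of those with a single symbol, and 14 (16.1%) were higher, against 37.3% and 30.9%. The median was -0.62 log2, against 0.08 over all probe sets and -0.17 over those with a single symbol. Groups did not overlap in 66 motor probe sets, with regenerating axons below in 46 (52.9%, against 36.9% of all and 43.5% of those with a single symbol) and above in 20 (23%, against 40.4% and 33.9%).

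By role, 5 of 6 dynein 1 probe sets (median -4.18 log2), 6 of 8 dynein light chains (-2.94), all 4 dynein 2 probe sets (-0.92), 4 of 6 dynactin (-3.60) and 3 of 4 regulators (-2) were lower in regenerating axons, and 1 of these 28, *Dynlrb2*, was higher. *Dctn1* had the most negative value among them, -5.06 ± 0.25 log2 (adjusted p = 1.24e-06, limma), with 1.02, 0.746 and 1.19 in regenerating axons, against 26.4, 28.5 and 44.2 in neurons. Of anterograde kinesins 14 of 28 were lower and 6 higher. The lowest was *Kif5a* 1373187_at, with 0.466, 0.0389 and 0.0699 in regenerating axons, against 4.08, 2.84 and 6.01 in neurons (-5.25 ± 0.80 log2, 38-fold lower, adjusted p = 0.00052, limma). *Klc1* 1370886_a_at followed with -5.15 ± 0.44 log2, and *Kif5b* 1372444_at was lower by 29.3-fold. *Kif1a* was lower at the probe sets 1382785_at and 1384133_at (-2.70 ± 0.30 and -1.34 ± 0.44 log2). The highest was *Kif13a* 1390319_at, 3.83-fold higher in regenerating axons. Mitotic kinesins had 3 of 13 higher, *Kif14*, *Kif23* 1395828_at and *Kif2c* 1374912_at (1.49 ± 0.16, 1.38 ± 0.18 and 0.71 ± 0.15 log2), and 1, *Kif15*, lower (-0.62 ± 0.23). The chemosensory receptor probe sets ran from -0.185 to 2.185 log2 in this comparison, with 25 of 28 called higher and 0 lower. All 14 motor probe sets called higher in regenerating axons lay inside that range.

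**Figure D3:**
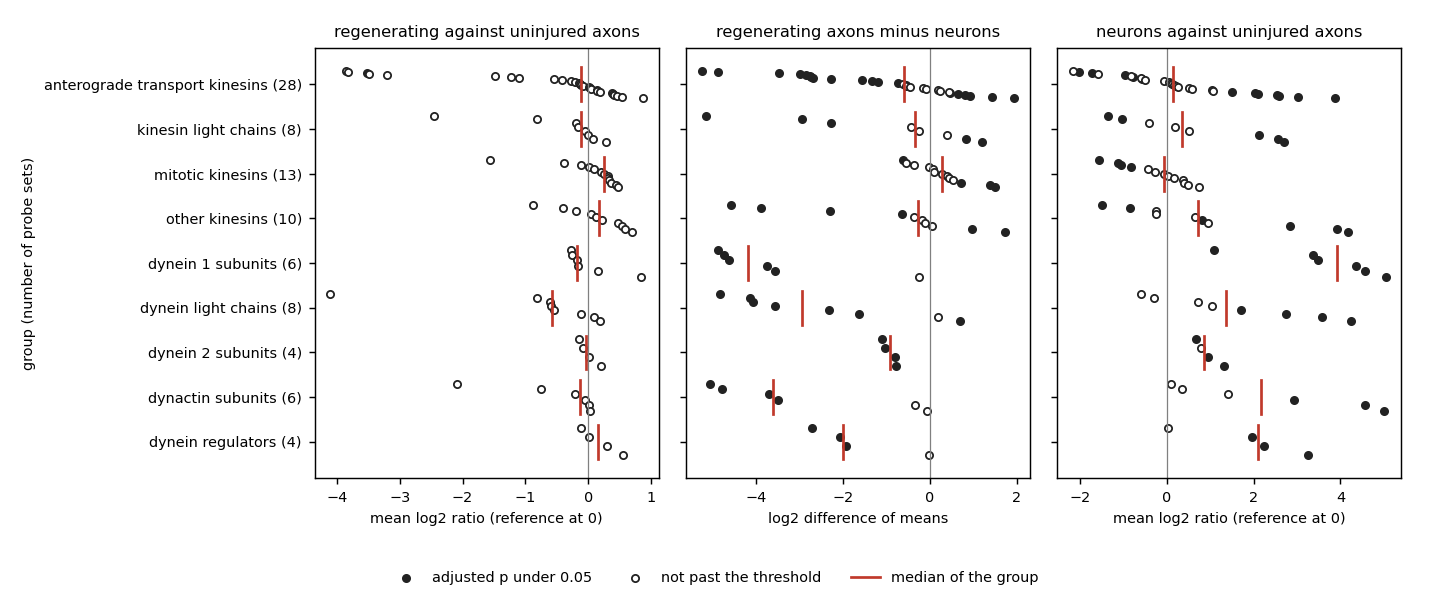
Mean log2 ratio against a fixed reference of 0 for each motor probe set in regenerating axons (left) and neurons (right), and the difference of the means of regenerating axons and neurons (middle), grouped by role. Filled points passed an adjusted p of 0.05 and red bars are medians. Dynein 1 lies at a median of -0.18 in regenerating axons and of 3.91 in neurons.

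Different probe sets of a gene did not always give the same answer, and the files used here hold no probe positions that would say which part of a transcript each one reads. Among the 20 motor genes with several probe sets (52 probe sets), in neurons against uninjured axons all probe sets passed in the same direction in 8, some passed and none opposed in 8, and none passed in 4. The sign of the difference was mixed in 7 of the 20, and the median range between the probe sets of a gene was 1.26 log2. In regenerating against uninjured axons, 1 gene, *Kif1a*, had a called probe set and 12 had mixed signs. The widest gap in that comparison was within kinesin-1: *Kif5c* spanned -3.85 to 0.14 log2, *Kif5b* -3.82 to -0.55 and *Kif5a* -3.21 to 0.05. *Klc1* spanned -2.46 to 0.29 log2, *Dctn6* -2.09 to 0.03 and *Kif23* -1.56 to 0.34. In regenerating axons against neurons, *Kif16b* and *Kif5c* had probe sets called in opposite directions, *Kif16b* being lower at 1391526_at (-0.56 ± 0.19 log2) and higher at 3 others. A statement about such a gene is therefore a statement about the probe set named.

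**Figure D4:**
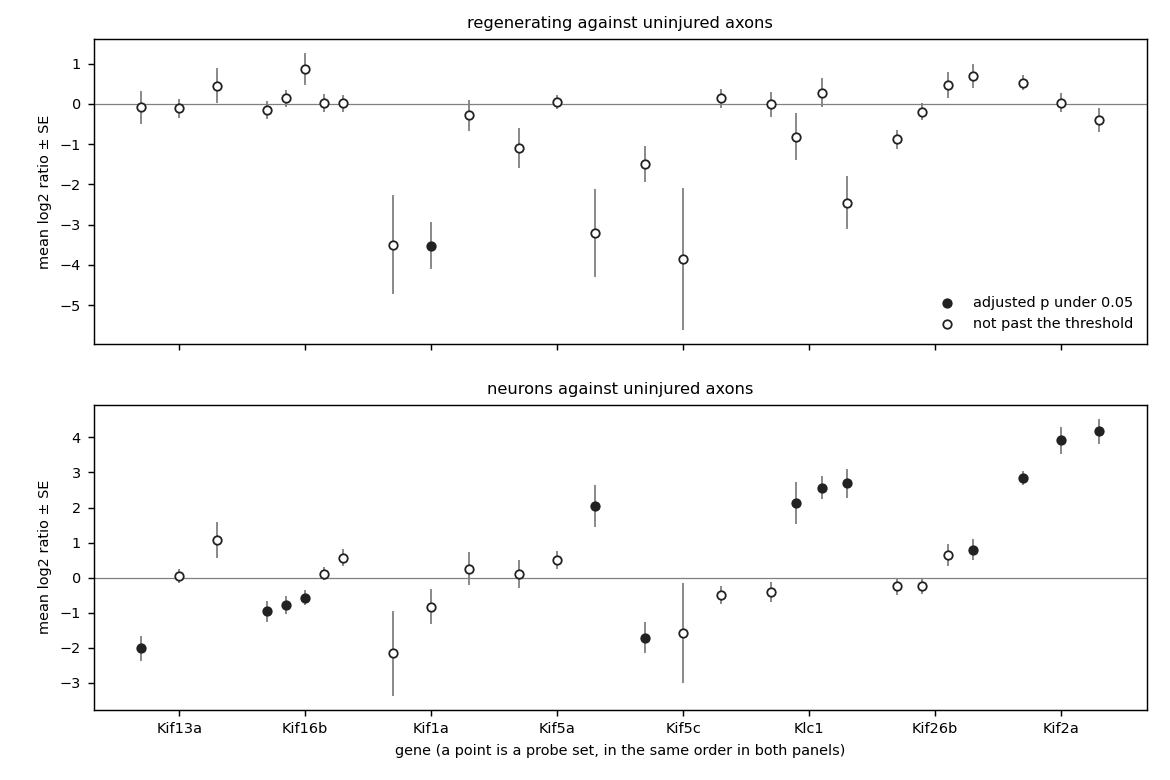
Mean log2 ratio ± SE against a fixed reference of 0 for every probe set of the 8 motor genes that have 3 or more, in regenerating against uninjured axons (top) and neurons against uninjured axons (bottom). The 3 *Kif2a* probe sets lie together at 2.84 to 4.18 in neurons, while those of *Kif5a* and of *Kif5c* spread over more than 3 log2 units in regenerating axons.

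Cargo adaptors and other motor partners, a list of 41 genes with 62 probe sets, had 35 probe sets higher in neurons than in uninjured axons (56.5%, against 28.4% of all and 34.3% of those with a single symbol) and 4 lower (6.45%, against 27.5% and 21.8%), with a median of 1.14 log2. The highest was *Capza2*, a capping protein subunit of the dynactin filament, 16-fold higher, and *Nudc*, a partner of Lis1, was 13.6-fold higher. *Actr1a*, which builds the dynactin filament, was 11.2-fold and 5.04-fold higher at its probe sets. The lower ones were *Mapk8ip2*, *Hook3*, *Numa1* and *Mapk8ip3*, at -1.42, -1.01, -0.84 and -0.62 log2, though *Hook3* and *Numa1* have further probe sets that were not lower. In regenerating against uninjured axons, 2 of 62 (3.23%, against 0.335% of all) were lower and 0 higher (against 0.00966%, limma; 9 lower and 3 higher at an unadjusted p below 0.05), and both encode partners of kinesin-1. *Mapk8ip1*, a scaffold that binds the kinesin light chain, had 0.227, 0.11 and 0.0769 in regenerating axons, 3.17, 2.56 and 3.79 in neurons and 0.715 to 1.21 (median 1) in uninjured axons (-3.01 ± 0.49 log2, adjusted p = 0.0449, limma). *Trak2*, which attaches mitochondria to kinesin-1, had 0.303, 0.157 and 0.234 in regenerating axons, 1.11, 1.13 and 1.25 in neurons and 0.626 to 1.03 (median 1) in uninjured axons (-2.16 ± 0.37 log2, adjusted p = 0.0485, limma). Both calls rest closely on the threshold. Without regenerating array 3, 0 of all probe sets were called lower, so both calls were lost there. Lower calls over all probe sets fell from 104 to 6 without regenerating array 2. They fell to 16, 35 and 17 without uninjured array 2, 5 or 6. They rose without uninjured array 1, 3 or 4 (294, 145 and 191) or regenerating array 1 (462). Their second probe sets, of *Mapk8ip1* and *Trak2*, did not pass: *Mapk8ip1* 1387971_a_at differed by -0.87 ± 0.19 log2 and *Trak2* 1370176_at by -0.05 ± 0.37.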

How the data were processed

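Expression was measured on 13 rat GeneChip arrays of regenerating axons, neurons and uninjured axons. RMA, which corrects background, normalises and summarises probes, is named without a version in the submitters' processing notes. The authors deposited linear ratios for 31099 rows, of which 57 were controls. Uninjured arrays 1 to 3 and 4 to 6 had a row median of 1 within a tolerance of 0.0001 in every row, and in at most 60.6% of rows for the other 18 triples. The lowest deposited ratio was 0.01. A ratio holds no signal level, so expression and background cannot be told apart, and the number of arrays limits the precision.

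Ratios were taken to log2 and fitted with limma 3.58.1 (lmFit and eBayes) in R 4.3.3 over 31042 probe sets, after a check of the script on simulated data. Neurons and regenerating axons were each tested as the mean of 3 arrays against a fixed reference of 0 counted as 1 array, with the uninjured arrays about their set mean adding to the spread only. Regenerating axons and neurons were compared in a 2-group fit. Values in every array could be given for any motor probe set, and full statistics went to the extremes of each role and to each call in regenerating axons. Symbols came from the platform annotation, and none differed in a table of GRCr8. The members and lists were chosen with earlier results of these data known. Alternatives varied the reference, the spread, centring, the floor, the features adjusted over, gene means, a replicate block and the arrays entered.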

Additional observations from a re-analysis of the deposited data

Results flagged for a closer look

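A motor probe set is listed where 1 of the 6 uninjured arrays stood apart from the others by Dixon's test (its gap to the nearest array, as a share of the whole range, was above the critical value). By chance this happens in about 1 in 20 groups of 6; here it held for 22 of 87 motor probe sets (25.3%) and for 5859 of all probe sets (18.9%). Each set of 3 uninjured arrays was divided by its own median, so that values at exactly 1 are common, and the test assumes values not scaled in this way. Of the 22 arrays that stood apart, 10 were array 1 and 6 were array 4.

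Uninjured array 1 was the low one for transport kinesins, with log2 ratios of -1.34 for *Kif1a* 1382785_at, -3.16 for *Kif1a* 1384133_at, -1.49 for *Kif5a* 1373187_at, -4.19 for *Kif5c* 1380172_at and -1.13 for *Klc1* 1370886_a_at. It was also low for a mitotic kinesin and 2 dynein light chains, with -1.35 for *Kif23* 1391063_at, -2.60 for *Dynlrb1* 1370179_at and -0.87 for *Dynlt2b* 1396123_at log2. It was the high one for 2 others, 0.30 for *Kif3b* 1374428_at and 0.39 for *Dynlrb2* 1383895_at log2. Uninjured array 4 gave log2 ratios of 0.42 for *Kif3c* 1369637_at, 1.24 for *Kif15* 1374794_at, 2.5 for *Kif20b* 1380775_at and 0.73 for *Kif2a* 1383156_at on the high side, and -0.57 for *Kif3b* 1379963_at and -0.74 for *Kif12* 1391611_at on the low side. Array 3 was low, at -0.36 for *Kif16b* 1378138_at and -0.76 for *Dctn4* 1387236_at log2, and array 5 at -0.64 for *Kif3c* 1387657_at log2. Array 6 gave 0.90 for *Kif13a* 1390480_at, 0.55 for *Kif14* 1397567_at and -0.15 for *Kif2a* 1371125_at log2.

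The array 1 values for *Kif1a*, *Kif5a*, *Kif5c*, *Klc1*, *Kif23* 1391063_at and *Dynlrb1* belong to probe sets that were also below a ratio of 0.5 in every regenerating array. Why array 1 stood apart for them was not tested.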

How the results depend on the processing

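The counts of motor probe sets moved by over 1.5 times under these settings. With no error given to the reference, 21 were lower in neurons than in uninjured axons (13 as reported), and 19 were lower and 9 higher in regenerating than in uninjured axons (1 and 0 as reported). A 2-group fit against the 6 uninjured arrays gave 16 lower and 7 higher in regenerating axons. With probe sets averaged per gene, 6 genes were lower in neurons and 0 in regenerating axons than in uninjured axons, and 9 were higher in regenerating axons than in neurons (14 as reported); this fit has fewer features. The replicate number as a block gave 4 lower in regenerating than in uninjured axons. The numbers were not taken to pair the arrays: same-numbered arrays of regenerating and uninjured axons correlated at -0.31, -0.08 and -0.14. Over all features, calls in regenerating axons were 3707 lower and 3539 higher with no reference error, 2924 and 2298 in the 2-group fit and 600 and 68 with the block, against 104 and 3 as reported. Leaving out each array in turn gave 30 to 35 higher and 10 to 17 lower in neurons than in uninjured axons, 0 to 1 higher and 0 to 5 lower in regenerating than in uninjured axons, and 12 to 15 higher and 40 to 47 lower in regenerating axons than in neurons. Leaving out an uninjured array can move the spread only, and uninjured array 7 could not be left out. Directions reversed with gene means only, where a probe set takes the value of its gene: *Kif3b* 1379963_at (1.03 in neurons against uninjured axons, -0.57 in regenerating axons against neurons), *Klc1* 1375229_at (1.75 and -2.495), *Kif16b* 1391526_at and 1395139_at (0.50 in regenerating axons against neurons) and *Kif23* 1391063_at (0.68 in that comparison). Of the reported calls, 34 of 46 in neurons against uninjured axons, 48 of 58 in regenerating axons against neurons and 0 of 1 in regenerating against uninjured axons passed under all alternatives run. The calls lost most often in neurons were *Kif16b* 1396255_at (11 alternatives), *Kif26b* 1376617_at (7) and *Dync2i2* (5), and in regenerating axons against neurons *Kif1b* (7), *Kif5c* 1380172_at (6) and *Kif1a* 1384133_at (5). The cause of these changes was not tested.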
